A study of Mus musculus with 20 samples.

Results

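Coronary ligation was compared with sham surgery in the 10 male mice of the series, 5 in each group, out of 20 mice in all. The members are set by the labels: they are the arrays labelled male sham and male MI (myocardial infarction, here by ligation of a coronary artery). Both groups were C57BL/6J mice aged 12 to 15 weeks, with no other allele or agent named in the labels, and tissue was taken 3 days after surgery. The sample was left ventricle with the infarct left out. The labels state neither the size of the infarcts nor how far the tissue lay from them. The other 10 arrays of the series are 5 female sham and 5 female MI mice. They share the estimate of the spread here, and their response is given only where it is set against that of the males.

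When a coronary artery is tied, the muscle it feeds dies within hours. Neutrophils and then monocytes enter the wound from the blood, clear dead cells and secrete signals, and resident fibroblasts divide and lay down collagen. Surviving muscle cells carry a greater load and turn on genes of the fetal heart, such as that of the natriuretic peptide Nppa. In the mouse the third day lies in the inflammatory phase, at the start of scar formation.

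Expression was read on Illumina whole-genome mouse BeadChips, 1 array per mouse, and is given as log2 intensity after background correction and quantile normalisation, so a difference of 1 is a doubling. Values are listed in the order of mice 1 to 5 of a group, which are the replicate numbers in the labels. Standard errors (SE) and adjusted p-values are from limma's moderated test with 5 mice per group, adjusted over all 12921 genes and unnamed probes tested, and "rose" and "fell" are used only of genes with an adjusted p under 0.05 in that test. By this rule 18.4% of genes were called, 9.77% higher and 8.59% lower after MI. The counts of a list are to be read against these shares. The 2 groups did not overlap for 18.1% of genes, with MI higher for 9.71% and lower for 8.42%. The median difference over all genes was -0.04. When each array was instead scaled to its 75th percentile, 998 genes were called higher and 2049 lower, in place of 1263 and 1110, and the median over all genes was -0.13. That scaling is named beside a gene where it changes the call, and beside a list whose count of rises or falls it moved by more than 1 gene and over 1.5 times. The brightest probe stands for a gene. For 38 of the 75 called genes named that had more than 1 kept probe, another probe differed by a smaller amount (by over 1.5 times) or in the other direction. The other probes are printed for only some of them. Several gene lists share members, and the genes named as not passing were picked after their values were seen, for their place in the list.

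Between 15670 and 17204 probes were detected on the sham arrays and between 17297 and 18307 on the MI arrays. The means were 16569 ± 566 (SD, n = 5) and 17982 ± 396 (exact permutation test over the 252 arrangements, two-sided, p = 0.00794, the smallest it can give). The median raw intensity lay between 33.7 and 38.1 on the sham arrays and between 38.2 and 39.2 on the MI arrays. Every MI array was thus above every sham array before normalisation. The Y-linked genes Eif2s3y and Kdm5d were detected on 10 of 10 arrays and Xist, the transcript of the silenced X chromosome, on 0 of 10. The ventricular light chain gene Myl2 lay between 13.59 and 13.93 over the 10 mice and the ventricular myosin gene Myh6 between 13.23 and 13.59, near the top of the scale at 13.99. Of 15 ventricular cardiomyocyte markers 0 rose and 1 fell, with a median difference of -0.04. With 75th percentile scaling 0 rose and 6 fell (median -0.37). Ldb3 of the Z-disc fell by 0.49, in a call that ended without sham mouse 2 or 3 or MI mouse 3 (adjusted p between 0.0502 and 0.0615), and its 5 kept probes ranged from -0.49 to 0.11. In bulk tissue, fewer cells of a type and less RNA per cell cannot be told apart.

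One sham array stood apart. Sham mouse 3 was hybridised in the last position (F) of its chip, and 258 genes lay more than 1 log2 unit below the mean of its own group there, against at most 9 on any other male array. Its array also had the fewest probes detected of the male arrays, 15670. The median raw intensity was the lowest there as well, 33.7 against 36.7 to 39.2 on the other male arrays. Pln, an inhibitor of the calcium pump, measured 12.80, 12.64, 7.96, 12.99 and 12.87 in sham mice and 12.73, 12.82, 12.53, 12.84 and 12.62 in MI mice. The Y-linked gene Eif2s3y lay at 6.57 in that mouse and between 8.63 and 9.23 in the other 9. Without sham mouse 3, 1811 genes were called in place of 2373. Without all 3 arrays in position F of the series, 2557 were called, of which 2042 were among the 2373. Of the genes named below as not passing, Ccnd1, Col6a1, Itgav, Nppb and Serpinh1 were called without those 3 arrays, with log2 differences of 0.47, 0.48, 0.39, 0.77 and 0.54 (adjusted p between 0.00614 and 0.0399). The calls of Gdf10 and P4ha1 ended without them (adjusted p = 0.0605 and adjusted p = 0.079). The genes named below by size of change were required to be called without sham mouse 3 as well.

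Atrial transcripts varied from mouse to mouse within both groups. Myl7, the atrial light chain of myosin, measured 7.98, 10.15, 7.45, 9.15 and 10.39 in sham mice and 9.11, 10.14, 9.73, 4.43 and 9.20 in MI mice. Sln, the atrial regulator of the calcium pump sarcolipin, measured 7.14, 9.81, 7.38, 8.19 and 9.99 in sham mice and 9.38, 9.36, 9.71, 4.26 and 8.44 in MI mice. MI mouse 4 was the lowest of the 10 for both, and the groups overlapped. Its 2 values lay below 4.69, the lowest detected value on any male array, and so are background readings. The atrial light chain Myl4 was likewise at 6.89 in MI mouse 4 and 9.35 to 11.67 in the other 9. Dkk3, a secreted protein abundant in atria, was at 6.66 in MI mouse 4 and 7.21 to 8.62 in the others. Of these 5 atrial markers, only Nppa was called. It measured 13.01, 12.94, 12.76, 12.15 and 13.27 in sham mice and 13.68, 13.68, 13.83, 13.53 and 13.62 in MI mice, the latter near the top of the scale at 13.99. Every MI mouse, mouse 4 included, lay above every sham mouse. The part of atrial tissue in this difference was not tested. The rise of Nppa was 0.84 (SE 0.16, adjusted p = 0.0011), and it ended as a call with 75th percentile scaling (log2 difference 0.50, adjusted p = 0.0633).

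**Figure D1:**
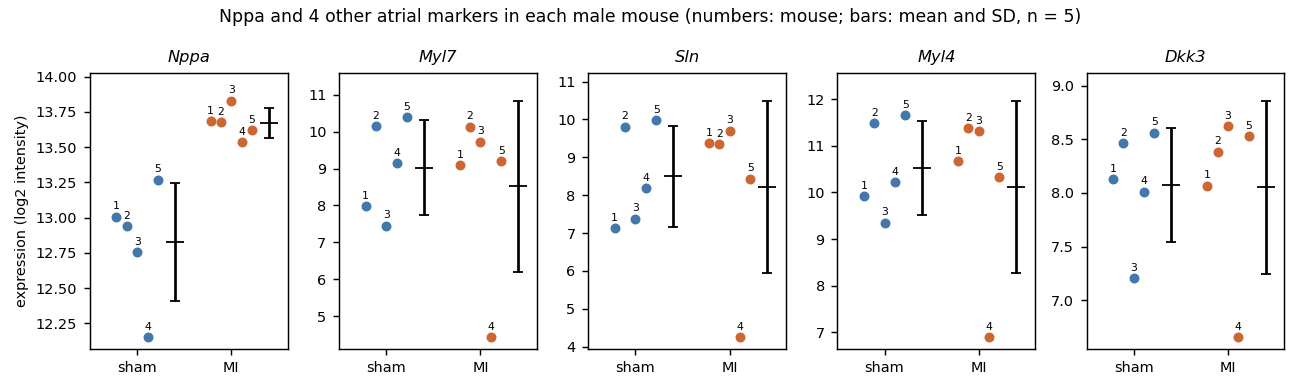
Expression (log2 intensity) of Nppa and 4 other atrial markers in each male mouse, with the mouse number above each point and the mean and SD of 5 mice as a bar. MI mouse 4 is the lowest MI point in all 5 panels, at 4.43 for Myl7, a background reading, and 13.53 for Nppa. In the Nppa panel the 5 MI mice lie above the 5 sham mice.

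The largest rises included genes of wound matrix, myeloid cells and dividing cells. Tnc, the matrix glycoprotein tenascin-C of healing wounds, measured 6.45, 4.61, 5.12, 6.11 and 7.13 in sham mice and 9.81, 9.69, 9.64, 9.12 and 9.72 in MI mice, and its 5 kept probes differed by between 0.31 and 3.71. Timp1, which blocks matrix metalloproteinases, measured 9.26, 7.70, 7.65, 8.58 and 9.52 in sham mice and 11.34, 11.52, 12.19, 11.65 and 11.57 in MI mice. Arg1, the arginase of wound macrophages, measured 6.87, 4.61, 4.23, 7.04 and 7.25 in sham mice and 8.71, 9.27, 9.90, 9.17 and 9.75 in MI mice. It was detected in 3 of 5 sham and 5 of 5 MI mice. For these genes the 5 MI mice were close together, within 0.69, 0.85 and 1.18 log2 units, while the sham mice spread over 2.52, 1.87 and 3.02. Sham mice 2 and 3 were the lowest of the 5 for each of the 3, and the groups did not overlap. Their calls held without either mouse, with a log2 difference for Arg1 of 3.01 without sham mouse 2 and 2.92 without sham mouse 3. The Arg1 values of both mice and the Tnc value of sham mouse 2 lay below 4.69, the lowest detected value on any male array. The sham spread and the size of the rise of these 2 genes thus rest in part on background readings.

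Plac8, a small cysteine-rich protein of myeloid cells, measured 6.08, 5.16, 4.59, 5.50 and 6.13 in sham mice and 7.91, 8.33, 8.32, 8.37 and 8.52 in MI mice and rose by 2.80 (SE 0.335, adjusted p = 1.55e-05). Hmox1, the heme oxygenase that breaks heme down to iron and bilirubin precursors, measured 6.64, 5.69, 5.51, 6.54 and 7.33 in sham mice and 8.47, 8.71, 9.23, 9.03 and 9.46 in MI mice and rose by 2.64 (SE 0.408, adjusted p = 0.000187). Sham mice 2 and 3 were again the lowest. Chil3, a chitinase-like lectin of myeloid cells in the mouse, measured 5.89, 4.35, 4.30, 5.69 and 5.85 in sham mice and 7.21, 7.59, 7.29, 7.59 and 8.10 in MI mice and rose by 2.34 (adjusted p = 0.0012), with its 3 kept probes between 1.08 and 2.34. Its near relative Chil4 rose by 2.22 (adjusted p = 0.000532), and probes of 2 such similar genes may read the same transcripts. Chil3 and Chil4 were detected in 3 of 5 sham mice and Plac8 in 4, and all 3 in 5 of 5 MI mice. The size of their rises thus rests in part on background readings.

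Cthrc1, a secreted protein of activated fibroblasts, was detected in 1 of 5 sham and 5 of 5 MI mice and measured 4.49, 4.17, 4.24, 4.85 and 4.86 in sham mice and 7.28, 6.73, 7.58, 6.93 and 7.47 in MI mice. Pclaf, a partner of the replication clamp, was likewise detected in 1 sham and 5 MI mice, at 4.44, 4.23, 4.55, 5.03 and 4.33 in sham mice and 6.90, 6.82, 6.84, 6.55 and 6.65 in MI mice. They rose by 2.68 and 2.24 (adjusted p = 1.62e-05 and adjusted p = 2.12e-06). The gap between the groups was wider than the spread within either.

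Nmrk2, a muscle kinase of nicotinamide riboside on the route to NAD, measured 8.11, 8.39, 8.16, 8.64 and 8.41 in sham mice and 10.64, 12.04, 10.89, 9.93 and 9.56 in MI mice. MI mouse 2 was far above the rest, and the groups did not overlap. The rise of 2.27 (SE 0.349, adjusted p = 0.000175) was 2.97 among the mice of chip 1 and 1.22 among those of chip 2. Of its 3 kept probes the lowest differed by -0.86, so the probes disagree. Crct1 and Sprr1a, which are best known from cornified epithelia, measured 4.20 to 4.72 in sham and 7.57 to 8.19 in MI mice and 4.48 to 5.23 in sham and 7.40 to 8.33 in MI mice, and MI exceeded sham in every mouse for both. Crct1 was not well above background in the 5 sham mice, which makes it at least 7.58-fold higher in the MI group (adjusted p = 7.49e-07). Sprr1a was detected in 2 of 5 sham and 5 of 5 MI mice.

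**Figure D2:**
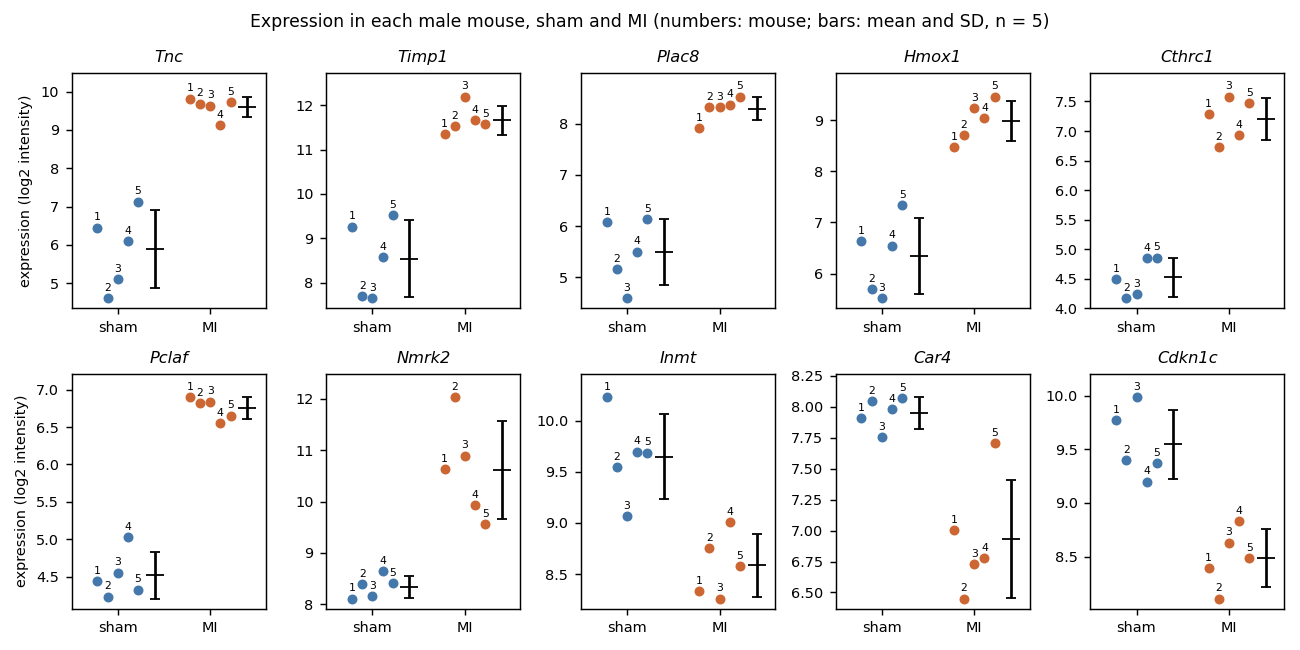
Expression (log2 intensity) of 10 of the genes that changed most, in each male mouse, with mouse numbers above the points and the mean and SD of 5 mice as a bar. The groups do not overlap in any panel. Sham mice 2 and 3 are the lowest for Tnc, Timp1 and Hmox1, at 4.61 and 5.12 for Tnc.

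The leading falls were smaller than the leading rises. Ano10, of the anoctamin family, fell furthest and measured 9.86, 9.84, 9.76, 9.97 and 9.74 in sham mice and 8.50, 7.79, 8.14, 8.20 and 8.75 in MI mice. Inmt, a methyltransferase for small amines, measured 10.23, 9.54, 9.07, 9.70 and 9.69 in sham mice and 8.33, 8.75, 8.26, 9.01 and 8.58 in MI mice and fell by 1.06 (SE 0.274, adjusted p = 0.0106). Car4, the carbonic anhydrase anchored on capillary and muscle membranes, measured 7.91, 8.05, 7.75, 7.98 and 8.07 in sham mice and 7.004, 6.45, 6.73, 6.78 and 7.71 in MI mice and fell by 1.02 (adjusted p = 0.00743). MI mouse 5 was close to the sham mice for Car4, and the other 4 MI mice were clearly below. Gchfr, the feedback regulator of tetrahydrobiopterin synthesis, measured 6.94, 6.65, 7.005, 6.21 and 6.63 in sham mice and 5.42, 5.48, 5.64, 5.85 and 5.71 in MI mice and fell by 1.07 (adjusted p = 0.000388). Gnmt, a methyltransferase that disposes of methyl groups, fell by 1.02 (adjusted p = 0.00189) with sham mice at 6.12 to 7.32 and MI mice at 5.58 to 5.97. The other kept probes of Gchfr and Gnmt were at -0.63 and -0.41. The transcription factor gene Tcf15, found in cardiac endothelium, lay at 8.06 to 8.57 in sham and 6.97 to 7.40 in MI and fell by 1.00 (adjusted p = 0.000173).

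The remaining leading falls included Gzmm, a granzyme of lymphocytes, by 1.07, Inka2, an inhibitor of p21-activated kinase, by 1.06, Syt7, a synaptotagmin of membrane repair, by 0.98, and Scgb1c1, a secretoglobin, by 1.01 (adjusted p between 0.000137 and 0.000392). Every MI mouse lay below every sham mouse for each, as the choice of the genes required. Ano10, Retnla, Ttll1, Cryba4, Ciart and Wnk2 fell by more, between 1.13 and 1.56. The 3 kept probes of Inka2 ranged from -1.06 to -0.57.

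Most of the measured genes of mitosis and of DNA replication rose. Of 59 mitotic and 46 replication genes listed, 40 and 38 were measured, and a dim gene could be kept through the MI arrays alone. Of 40 measured genes of mitotic kinases, spindle and chromosomes, 33 rose, 0 fell and 7 did not pass, with a median difference of 1.16 against -0.04 over all genes. Of 38 genes of DNA replication and nucleotide synthesis, 24 rose, 1 fell and 13 did not pass (median 0.72). Of 24 G1 cyclins and cell cycle inhibitors, 7 rose and 1 fell (median 0.20). Leaving out any 1 male array kept the mitotic count between 32 and 34 and the replication count between 24 and 25.

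In the mouse genome (RefSeq, GRCm38.p6) the promoters of these genes carry recurring motifs, and 4 are printed because the mitotic and replication lists held the largest shares of rising genes among lists of over 20 measured genes. Each runs 5′ to 3′ on the gene's own strand from 250 bases before the annotated start to 50 after it. Capitals mark 3 motifs on either strand, which can overlap: CCAAT, the letters of the CCAAT box, then TTTGAA, the core of the cell cycle homology region of mitotic genes, and lastly TTTNGCGC, an E2F-like site.
Cdk1, chr10:69352863-69353162, minus strand: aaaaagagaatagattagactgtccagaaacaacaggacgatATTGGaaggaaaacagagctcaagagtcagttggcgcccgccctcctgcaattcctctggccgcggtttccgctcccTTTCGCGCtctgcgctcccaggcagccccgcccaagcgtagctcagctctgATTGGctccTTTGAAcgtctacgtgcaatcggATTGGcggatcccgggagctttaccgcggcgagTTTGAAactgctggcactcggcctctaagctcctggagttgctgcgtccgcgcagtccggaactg
Top2a, chr11:99024140-99024439, minus strand: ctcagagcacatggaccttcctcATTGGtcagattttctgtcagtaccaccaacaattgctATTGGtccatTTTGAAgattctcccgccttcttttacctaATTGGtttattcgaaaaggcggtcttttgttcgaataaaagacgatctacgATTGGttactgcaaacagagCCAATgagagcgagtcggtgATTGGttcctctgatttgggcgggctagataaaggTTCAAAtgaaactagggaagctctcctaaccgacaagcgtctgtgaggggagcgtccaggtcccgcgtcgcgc
Mcm5, chr8:75109259-75109558, plus strand: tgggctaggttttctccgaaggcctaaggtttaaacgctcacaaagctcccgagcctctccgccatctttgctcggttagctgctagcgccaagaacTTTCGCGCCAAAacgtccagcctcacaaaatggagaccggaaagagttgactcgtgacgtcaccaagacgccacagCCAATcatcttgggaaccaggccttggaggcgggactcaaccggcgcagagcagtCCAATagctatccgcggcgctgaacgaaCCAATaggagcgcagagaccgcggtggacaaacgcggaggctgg
Mcm6, chr1:128359656-128359955, minus strand: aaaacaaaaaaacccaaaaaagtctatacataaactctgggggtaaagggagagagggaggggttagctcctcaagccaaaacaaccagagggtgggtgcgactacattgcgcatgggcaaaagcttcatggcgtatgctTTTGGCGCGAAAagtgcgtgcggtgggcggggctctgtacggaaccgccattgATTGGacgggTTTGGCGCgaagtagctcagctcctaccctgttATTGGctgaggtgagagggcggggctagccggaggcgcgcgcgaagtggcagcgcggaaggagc

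The mitotic genes Cdk1 and Top2a held 2 matches of TTTGAA each and 3 and 6 of CCAAT. The replication genes Mcm5 and Mcm6 held 0 of TTTGAA, and 2 and 3 of TTTNGCGC, of which Top2a held 0 and Cdk1 held 1. Promoters were at hand for 32 of the 40 mitotic and 30 of the 38 replication genes, taking the first listed start of a gene. TTTGAA stood in 75% of the mitotic promoters, 10% of the replication promoters and 18.1% of all 27025 promoters. TTTNGCGC stood in 6.25%, 16.7% and 1.38% of them, and CCAAT in 68.8%, 56.7% and 37.9%. Among the 8311 tested genes with a promoter the shares were 11.7% for TTTGAA, 2.51% for TTTNGCGC and 38.5% for CCAAT. A match is a description of letters and not evidence that a factor binds there.

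Cdk1, the kinase that drives entry into mitosis, measured 5.28, 5.29, 5.81, 5.61 and 5.59 in sham mice and 7.74, 7.29, 8.05, 7.23 and 7.57 in MI mice and rose by 2.06 (SE 0.243, adjusted p = 1.46e-05). Top2a, the topoisomerase that untangles chromosomes, measured 4.94, 4.95, 5.47, 5.62 and 5.40 in sham mice and 7.28, 6.96, 7.39, 6.75 and 7.21 in MI mice, and its 2 kept probes rose by 0.74 and 1.84. Aurkb, a kinase of chromosome segregation, lay at 4.55 to 4.99 in sham and 5.99 to 6.48 in MI mice, and Spc25 of the kinetochore at 4.22 to 4.83 in sham and 5.71 to 6.24 in MI mice. MI mouse 4 was lowest of the 5 MI mice for Cdk1 and Top2a, and all 5 stood above all sham mice.

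Mcm5 and Mcm6, subunits of the helicase that opens DNA for replication, measured 6.89, 6.44, 6.74, 7.02 and 6.66 in sham mice and 8.39, 8.27, 8.96, 8.23 and 8.18 in MI mice and 7.10, 7.04, 6.60, 7.05 and 7.02 in sham mice and 8.52, 8.52, 8.79, 8.26 and 8.47 in MI mice. They rose by 1.66 and 1.55 (SE 0.19 and 0.173, adjusted p = 1.18e-05 and adjusted p = 1.1e-05). Tyms, which makes thymidylate, rose by 1.75. The transcription factor genes E2f1 and E2f2, which switch on replication genes, rose by 1.30 and 1.19 (adjusted p = 9.07e-05 and adjusted p = 0.000438), and the pocket protein gene Rbl1 rose by 0.89 (adjusted p = 0.000552).

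The exception in replication was Ung, the uracil glycosylase of DNA repair, which fell by 0.72 (adjusted p = 0.00108), with sham mice at 9.24 to 9.87 and MI mice at 8.61 to 8.94. The exception among inhibitors was Cdkn1c (p57), which holds cells out of the cycle. It measured 9.77, 9.40, 9.99, 9.20 and 9.37 in sham mice and 8.39, 8.11, 8.63, 8.83 and 8.49 in MI mice and fell by 1.06 (SE 0.175, adjusted p = 0.000339), with all MI mice below all sham mice. Cdkn3, a phosphatase of mitotic kinases, rose by 1.25 (adjusted p = 0.00165). The cyclin gene Ccnd1 was not called, with a log2 difference of 0.28 (adjusted p = 0.282), although it was called without sham mouse 3 (adjusted p = 0.0295).

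Histone genes moved by class. They form multigene families of near-identical copies, so a probe may read several, and apart from H2ac12 and H2ac15, which are among the 16 largest rises, they were singled out after their values were seen. Of 13 clustered H2A genes 10 rose and 2 fell, with a median difference of 1.22. Of 9 clustered H4 genes 0 rose and 6 fell (median -0.66), and of 9 clustered H2B genes 0 rose and 2 fell (median -0.39). With 75th percentile scaling 0 of the H2B genes rose and 6 fell (median -0.54). Of 7 clustered H3 genes 1 rose and 0 fell. H2ac12 measured 7.38, 6.95, 7.80, 7.45 and 7.38 in sham mice and 9.82, 9.36, 10.29, 9.61 and 9.89 in MI mice and rose by 2.40 (SE 0.252, adjusted p = 9.16e-06). H4c11 measured 8.86, 8.54, 9.09, 8.55 and 8.54 in sham mice and 7.70, 7.68, 7.97, 8.16 and 7.95 in MI mice and fell by 0.82 (SE 0.18, adjusted p = 0.00339). The opposite directions held on both chips, with class medians on chips 1 and 2 of 1.25 and 1.18 for H2A, and of -0.84 and -0.42 for H4. The 2 clustered H2A genes that fell, H2ac18 and H2ac19, fell by 0.73 and 0.62, with another H2ac18 probe at 0.14. The variant gene H2az1 rose by 0.80 (adjusted p = 7.45e-05).

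**Figure D3:**
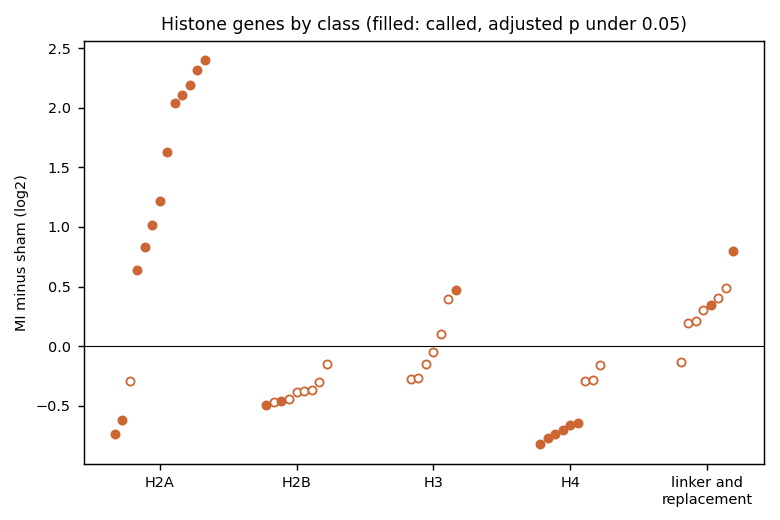
Log2 difference between MI and sham for each measured histone gene, grouped by class, with filled points for genes called at an adjusted p under 0.05. The clustered H2A genes reach 2.40, while the 9 H4 genes all lie below 0, down to -0.82.

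Part of the collagens and of the enzymes that build them rose. Of 16 fibrillar and interstitial collagens 9 rose and 0 fell (median 0.88). Col1a1, the main fibrillar collagen chain, measured 8.37, 8.35, 8.32, 8.66 and 8.82 in sham mice and 10.65, 10.27, 10.81, 10.19 and 10.72 in MI mice and Col3a1, its partner in early scars, 7.84, 7.22, 7.13, 8.54 and 7.85 in sham mice and 9.60, 8.97, 10.04, 9.53 and 9.75 in MI mice. All 5 MI mice stood above all sham mice for both. Col8a1, a short-chain collagen of injured vessels and hearts, rose by 1.89, Col5a1, which nucleates fibrils, by 1.44, and Col5a2 by 1.599, with another Col5a2 probe at 0.43. Col6a1, of beaded filaments, did not pass (log2 difference 0.43, adjusted p = 0.0775) but was called without MI mouse 4 (adjusted p = 0.0391).

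Of 18 collagen processing enzymes 8 rose and 1 fell. Lox, the copper enzyme that cross-links collagen, lay at 5.99 to 7.31 in sham and 9.48 to 9.999 in MI mice. Loxl1, its relative that acts on elastin, rose by 0.87 (adjusted p = 0.00155), Pcolce, which aids removal of the collagen propeptide, by 0.61 (adjusted p = 0.00268), and P3h1, a prolyl hydroxylase, by 0.72 (adjusted p = 0.00543). The 3 kept P3h1 probes ranged from 0.23 to 0.72. P4ha1, another prolyl hydroxylase, fell by 0.65, in a call that ended without any 1 of the male mice other than sham mouse 4 or MI mouse 1 (adjusted p between 0.06 and 0.1), with another probe at 0.11. The collagen chaperone gene Serpinh1 did not pass (log2 difference 0.43, adjusted p = 0.0935) but was called without sham mouse 3 (adjusted p = 0.0469).

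Of 26 matricellular proteins and proteoglycans 13 rose and 1 fell. Fn1, fibronectin, lay at 6.59 to 7.43 in sham and 9.22 to 9.70 in MI mice, with its 3 kept probes rising by between 0.78 and 2.46. Mfap5, of elastic microfibrils, rose by 1.27 and the hyaluronan receptor Cd44 by 1.21. Biglycan (Bgn) rose by 0.74 (adjusted p = 0.00349), whereas the proteoglycan Dcn did not pass (log2 difference 0.19, adjusted p = 0.741). Fmod, fibromodulin, fell by 0.37, in a call that ended without any 1 of the male mice other than sham mouse 4 or MI mouse 5 (adjusted p between 0.0516 and 0.104).

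Among 24 genes that cut matrix or inhibit its proteases, 7 rose and 0 fell. Adamts4, which cuts aggrecan and versican, measured 4.41, 4.72, 4.76, 5.21 and 4.72 in sham mice and 6.78, 6.84, 7.18, 6.67 and 6.70 in MI mice, and Adam12, a membrane metalloprotease of regenerating muscle, was detected in 0 sham and 5 MI mice, which makes it at least 1.29-fold higher in the MI group (adjusted p = 0.000281). Mmp12, the macrophage elastase, rose by 1.11 (adjusted p = 0.00192). The inhibitors Timp2 and Timp3 did not pass (log2 differences 0.07 and -0.22).

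Of 17 fibroblast identity markers 5 rose and 1 fell. Thy1, a surface marker of fibroblasts, rose by 0.84 (adjusted p = 0.00228), Lum, lumican, by 0.81 (adjusted p = 0.00673) and Mfap4 by 0.68 (adjusted p = 0.0121). Clec3b, tetranectin, fell by 0.48, in a call that ended without sham mouse 3 or MI mouse 2 or 3 (adjusted p between 0.0534 and 0.0632). The markers Pdgfra and Tcf21 of resting cardiac fibroblasts did not pass (log2 differences 0.27 and 0.02). Fibroblast markers moved in the same 5 mice as the collagens, and their part in the collagen result was not tested.

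Of 21 TGF-beta superfamily ligands and regulators 6 rose and 1 fell, and 6 rose and 5 fell with 75th percentile scaling. Tgfbi, a matrix protein induced by TGF-beta, rose by 1.497 (adjusted p = 5.75e-05), Fstl1 and Fstl3 of the follistatin family by 1.37 and 0.88, and the receptor Tgfbr2 by 0.60 (adjusted p = 0.000438). The ligand Tgfb1 itself was not called (log2 difference 0.09, adjusted p = 0.82). Gdf10 fell by 0.57, in a call that ended without any 1 of the male mice other than sham mouse 2 or 4 (adjusted p between 0.0525 and 0.102). Ccn2, connective tissue growth factor, measured 11.03, 10.86, 11.46, 11.35 and 11.41 in sham mice and 12.69, 13.05, 12.82, 12.57 and 12.79 in MI mice and rose by 1.56 (SE 0.194, adjusted p = 2.03e-05). Of the secreted Wnt modulators, Sfrp1 rose by 0.84 (adjusted p = 0.000865), and the related CCN genes Ccn4 and Ccn5 rose by 2.14 and 1.12, with a second Ccn4 probe at 0.37.

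In the insulin-like growth factor system of 13 genes, 1 rose and 1 fell. The binding protein Igfbp3 rose by 0.89 (adjusted p = 0.00462) and Igfbp6 fell by 0.66 (adjusted p = 0.00527). Of 25 angiogenic ligands and receptors 7 rose and 0 fell, among them Angpt2, which destabilises vessels, by 0.81 (adjusted p = 0.00357), Vegfd, a ligand of lymphatic growth, by 0.70 (adjusted p = 0.00395), and Angptl4, an inhibitor of lipoprotein lipase, by 1.35 (adjusted p = 0.00946). Vegfa did not pass (log2 difference -0.18, adjusted p = 0.794). The median of the list was 0.11, and -0.02 with 75th percentile scaling, where 6 rose and 2 fell, so its sign depended on the scaling. Of 18 endothelial markers 0 were called, and 1 fell without MI mouse 3 or without MI mouse 5. Of the 18, 14 had a difference below 0 (median -0.11), and 0 rose and 4 fell with 75th percentile scaling. Pecam1 and Cdh5 were among the 4 above 0 (log2 differences 0.14 and 0.13). At an unadjusted p under 0.05, 4 of the 18 passed.

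Cytoskeletal genes rose in number. Of 41 actin dynamics genes 24 rose and 0 fell (median 0.70). Actn1, the non-muscle actinin of focal contacts, measured 8.67, 8.49, 8.61, 8.97 and 8.93 in sham mice and 10.11, 10.16, 10.08, 10.02 and 10.11 in MI mice and rose by 1.36 (SE 0.148, adjusted p = 9.98e-06). Tagln2 rose by 1.01 and Arpc1b, of the Arp2/3 complex that branches actin, by 0.91 (adjusted p = 0.000149 and adjusted p = 0.000202). Tpm4, a tropomyosin of non-muscle cells, rose by 1.13, with probes between 0.51 and 1.35.

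Of 22 tubulins and intermediate filaments 11 rose and 0 fell, and 10 rose and 2 fell with 75th percentile scaling. Vim, the filament protein of mesenchymal and blood cells, measured 9.16, 9.41, 9.57, 10.06 and 9.99 in sham mice and 10.87, 11.06, 11.02, 10.83 and 11.04 in MI mice and rose by 1.33. The tubulins Tuba1b and Tubb6 rose by 0.90 and 1.30, and Lmnb1 of the nuclear lamina by 1.51 (adjusted p between 3.73e-05 and 0.000154). Desmin (Des), the filament of muscle cells, did not pass (adjusted p = 0.994). Of 17 annexins and S100 proteins 9 rose and 0 fell, with S100a11 up by 1.17, S100a6 by 0.88 and Anxa3 by 0.67. S100a1, the form of cardiac muscle, did not pass (log2 difference -0.28, adjusted p = 0.0528) but fell with 75th percentile scaling (log2 difference -0.55, adjusted p = 0.00285).

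Genes used as references for quantitative PCR were not constant. Of 17 common reference genes 6 rose and 0 fell (median 0.42, 0.22 with 75th percentile scaling). The elongation factor Eef1a1 measured 12.81, 12.73, 12.75, 13.06 and 13.02 in sham mice and 13.58, 13.64, 13.70, 13.41 and 13.52 in MI mice and rose by 0.70 (adjusted p = 0.000545). Tubb5 rose by 0.87 (adjusted p = 0.00162) and Ppia by 0.49 (adjusted p = 0.00143), the latter not with 75th percentile scaling (adjusted p = 0.106). Actb rose by 0.93 at its brightest probe, but its 5 kept probes ranged from -2.70 to 1.44. Tbp was not called (log2 difference -0.13, adjusted p = 0.375). Gapdh was not called either (log2 difference -0.12, adjusted p = 0.486) but fell with 75th percentile scaling (log2 difference -0.43, adjusted p = 0.032).

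Most of the measured macrophage, monocyte and neutrophil markers rose. Of the 24 macrophage and monocyte and 16 neutrophil markers listed, 19 and 9 were measured. A dim gene could be kept through the MI arrays alone, which can raise the share that rose. Of 19 macrophage and monocyte markers 12 rose and 0 fell (median 0.83), and leaving out any 1 male array left 12. Lyz2, lysozyme, measured 10.18, 10.39, 10.86, 10.84 and 10.98 in sham mice and 11.99, 11.67, 11.59, 11.52 and 11.91 in MI mice and rose by 1.09 (adjusted p = 0.00256). Fcgr1, the high-affinity Fc receptor, rose by 1.33 and Cd52 by 1.53 (adjusted p = 0.000187 and adjusted p = 0.000714). Mrc1, the mannose receptor of resident and alternatively activated macrophages, rose by 0.99 (adjusted p = 7.44e-05). The resident macrophage markers Cd163, Timd4, Folr2 and Lyve1 did not pass (log2 differences -0.14, -0.03, 0.10 and -0.20). Retnla, a resistin-like protein of alternatively activated macrophages, fell by 1.33 and measured 6.85, 7.01, 6.37, 6.28 and 6.88 in sham mice and 5.40, 5.39, 5.34, 5.02 and 5.57 in MI mice.

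Of 9 neutrophil markers 7 rose and 0 fell. S100a8, a subunit of calprotectin, measured 7.89, 6.52, 6.39, 7.22 and 7.53 in sham mice and 8.43, 9.05, 9.35, 8.57 and 9.81 in MI mice and rose by 1.93 (adjusted p = 0.00146). The lectin receptor Clec4d rose by 1.95, and Retnlg, a resistin-like protein of neutrophils, by 1.21 (adjusted p = 0.000785 and adjusted p = 0.00389). Of 6 mast cell markers, Kit rose by 0.87 (adjusted p = 0.00747) and the protease Mcpt4 fell by 0.71 (adjusted p = 0.00357). Of 3 dendritic cell and 4 adipocyte markers 0 were called.

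Of 22 phagocyte remodelling genes 9 rose and 1 fell. Lgals3, galectin-3, measured 9.18, 7.90, 7.95, 9.52 and 9.18 in sham mice and 10.75, 10.57, 11.23, 10.81 and 11.26 in MI mice, with sham mice 2 and 3 below the other shams, and rose by 2.18 (adjusted p = 0.000428). Ch25h, which makes an antiviral and chemotactic oxysterol precursor, rose by 1.62 (adjusted p = 0.000219) and Lgals1 by 0.75 (adjusted p = 0.00035). Of 28 lysosomal hydrolases and membrane proteins 10 rose and 1 fell. The cathepsins Ctsk, Ctss and Ctsc rose by 1.01, 1.34 and 0.77, and the legumain gene Lgmn by 1.01. Ctsf fell by 0.64 (adjusted p = 0.00472). Psap, the precursor of the saposins, did not pass (log2 difference -0.12, adjusted p = 0.491) but fell with 75th percentile scaling (log2 difference -0.43, adjusted p = 0.0236).

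Of 10 genes of MHC class II presentation 2 rose and 0 fell, or 20%, against 9.77% of all genes called higher and 18.4% called in either direction. The proteolysis genes Ctss and Ifi30 rose (1.34 and 1.24), while the chain genes H2-Aa and H2-Ab1, the invariant chain Cd74 and the regulator Ciita did not pass (log2 differences 0.59, 0.27, 0.29 and 0.25). Of 15 genes of MHC class I presentation and the immunoproteasome 0 were called, 2 had an unadjusted p under 0.05, and 0 rose and 2 fell with 75th percentile scaling. B2m, the light chain of class I, was among those that did not pass (0.29, adjusted p = 0.158).

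Of 28 chemokines and receptors 11 rose and 0 fell. Ccl7 and Ccl12, which draw monocytes from marrow and blood, rose by 1.56 and 1.498, and Ccl9 by 1.09 (adjusted p = 0.00121, adjusted p = 0.00016 and adjusted p = 0.00151). Cxcl12, the stromal chemokine that retains stem cells, did not pass (log2 difference 0.22, adjusted p = 0.193). Of 28 genes of the interleukin 1 and Toll-like receptor family 10 rose and 0 fell, and 6 rose without sham mouse 2 or without MI mouse 3. Tlr13, an endosomal receptor of bacterial ribosomal RNA in the mouse, measured 5.58, 5.66, 5.42, 5.42 and 5.53 in sham mice and 6.87, 6.95, 7.12, 6.90 and 7.73 in MI mice and rose by 1.59 (adjusted p = 2.12e-05), with another probe at 0.75. Tlr2 rose by 0.71 and the nuclear inhibitor of NF-kappaB, Nfkbiz, by 0.68 (adjusted p = 0.00405 and adjusted p = 0.00224). Nfkbia and Tnfaip3, feedback genes of the same pathway, did not pass (log2 differences -0.14 and 0.12).

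Of 29 interferon response genes 6 rose and 0 fell (median 0.28). That is 20.7% of the list, against 9.77% of all genes called higher and 18.4% called in either direction. Oasl2 and the membrane protein Ifitm1 rose by 0.64 and 0.61 (adjusted p = 0.00297 and adjusted p = 0.00166), with another Oasl2 probe at 0.09. Ifitm3 rose by 0.55, but not with 75th percentile scaling (adjusted p = 0.102). Cxcl10, detected in 0 sham and 5 MI mice, was at least 1.69-fold higher (adjusted p = 0.000187). The interferon factors Irf1, Irf7 and Irf9 and the guanylate binding proteins Gbp2 and Gbp3 did not pass (log2 differences -0.09, 0.25, 0.20, -0.14 and 0.07).

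Of 27 integrins and cell adhesion genes 10 rose and 1 fell. Sele, the E-selectin that activated endothelium shows to leukocytes, was detected in 0 sham and 5 MI mice and was at least 1.15-fold higher (adjusted p = 0.0093). The leukocyte integrin Itgb7, likewise detected in 0 sham and 5 MI mice, was at least 1.1-fold higher (adjusted p = 0.00217). The widely expressed Itgb1 and Itgav did not pass (log2 differences 0.13 and 0.32). Of 19 basement membrane genes 4 rose and 0 fell, or 21.1%, against 9.77% of all genes called higher and 18.4% called in either direction. Fbln2, with its 3 kept probes between 0.43 and 1.12, rose by 1.12 and Sparc, a collagen-binding protein, by 0.93 (adjusted p = 5.19e-05 and adjusted p = 0.00275). The laminins Lama2 and Lamc1 did not pass (log2 differences 0.19 and 0.15). The median of the basement membrane genes was 0.15, and -0.02 with 75th percentile scaling, where 3 rose and 3 fell.

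Of 19 genes of the interleukin 6 family and Stat3 feedback 2 rose and 0 fell: Timp1 and the oncostatin M receptor Osmr, by 0.66 (adjusted p = 0.00839). Of 15 complement components and receptors 5 rose and 0 fell, with C1qb up by 0.77 (adjusted p = 0.00477), properdin (Cfp) by 0.87 (adjusted p = 0.00949) and Masp1 by 0.52 (adjusted p = 0.00197). Without MI mouse 3, 4 or 5 or sham mouse 2, and also with 75th percentile scaling, 3 of the 15 rose. Of 15 genes of the plasminogen system and coagulation 7 rose and 0 fell, with Anxa2, a receptor for plasminogen, up by 1.28, factor XIII (F13a1) by 0.65 and protein S (Pros1) by 0.51. The second Anxa2 probe was at 0.36.

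Eicosanoid genes went both ways. Of 16 genes of eicosanoid synthesis and receptors 5 rose and 4 fell. The genes that rose include the leukotriene receptor Ltb4r1 by 1.07, the leukotriene activating protein Alox5ap by 0.89 and prostacyclin synthase (Ptgis) by 0.62, with adjusted p between 0.00287 and 0.00945. Those that fell include Ptgds, the prostaglandin D synthase, which measured 11.22, 10.86, 10.67, 10.86 and 11.004 in sham mice and 10.26, 9.88, 9.55, 10.66 and 9.92 in MI mice and fell by 0.87 (adjusted p = 0.0109). The epoxide hydrolase Ephx2 fell by 0.54, Ptges2 by 0.64 and Cyp4b1 by 0.44 (adjusted p between 0.00357 and 0.0124). Every MI mouse was below every sham mouse for Ptgds, MI mouse 4 being just below the lowest of them.

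Of 13 genes of arginine and polyamine metabolism 6 rose and 0 fell, and 3 rose without MI mouse 3. Besides Arg1, the synthase Ass1, which regenerates arginine, rose by 1.04 (adjusted p = 0.00146) and the spermidine synthase Srm by 0.65 (adjusted p = 0.00676). Of 30 p53 targets and cell death genes 7 rose and 0 fell, against 7 rises and 2 falls with 75th percentile scaling. Without that scaling 23.3% rose, against 9.77% of all genes called higher and 18.4% called in either direction. Casp8, the initiator caspase of death receptors, rose by 0.80 (adjusted p = 2.32e-05), the survival factor Bcl2a1b of leukocytes by 1.79 and Gadd45g by 1.06. The p53 targets Cdkn1a and Mdm2 did not pass (log2 differences 0.24 and -0.20). Myeloid and cell cycle markers were higher in the same 5 mice as these lists, and their part in the list results was not tested.

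**Figure D4:**
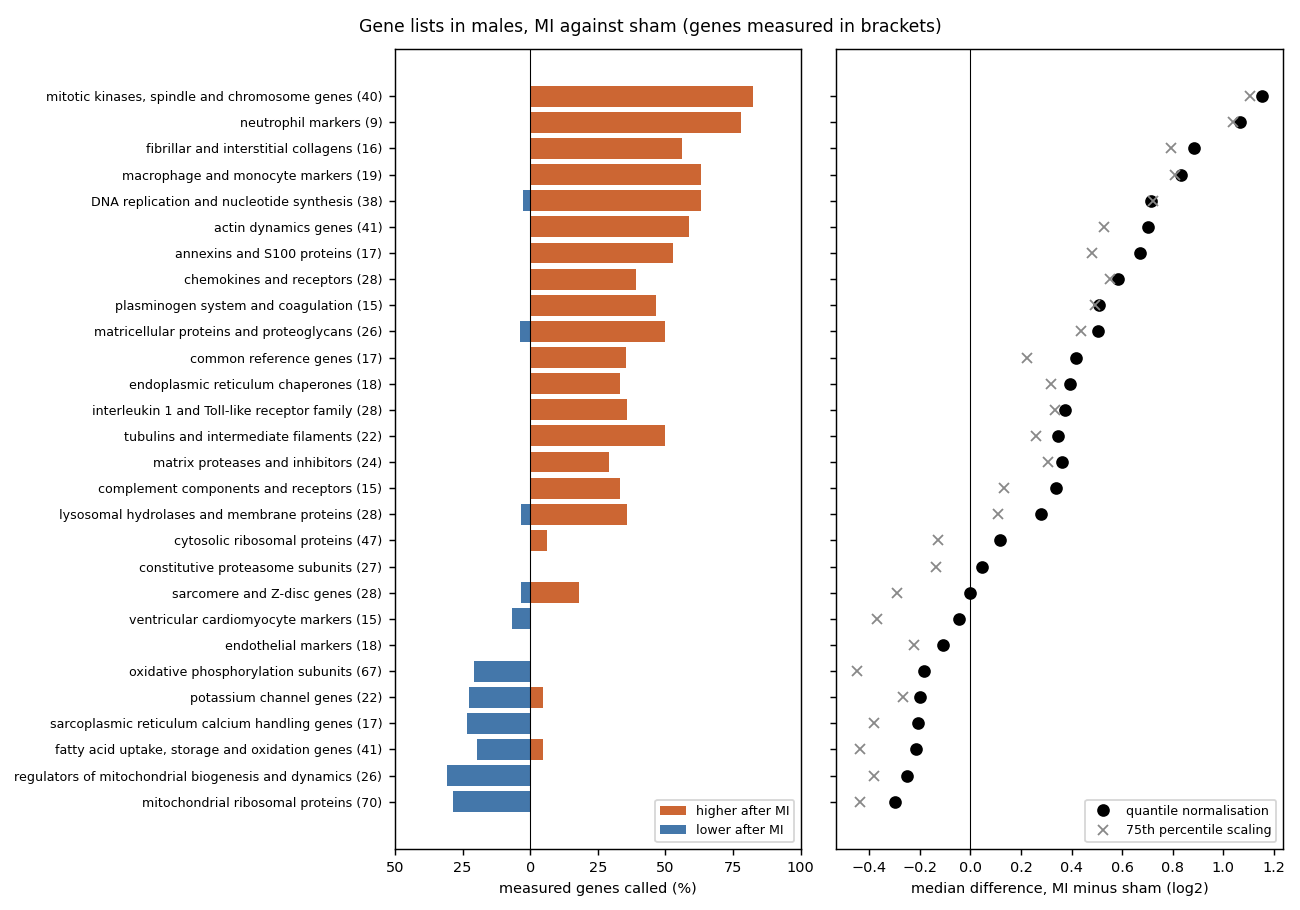
For 28 gene lists in males, the left panel gives the share of measured genes called higher (to the right) or lower (to the left) after MI and the right panel the median log2 difference under 2 normalisations. The mitotic list stands at a median of 1.16 and the mitochondrial ribosomal proteins at -0.30. With 75th percentile scaling the metabolic and muscle lists lie further to the left.

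Among 20 ventricular stress and fetal genes of the muscle cell 4 rose and 0 fell. That is 20%, against 9.77% of all genes called higher and 18.4% called in either direction. With 75th percentile scaling 3 rose and 2 fell, and the median went from 0.26 to 0.03. Nppb, the brain natriuretic peptide, measured 12.25, 12.78, 13.20, 11.26 and 12.82 in sham mice and 13.12, 13.34, 13.23, 13.11 and 12.40 in MI mice, and was not called (log2 difference 0.58, adjusted p = 0.153). The sham mice spread over 1.94 log2 units. Myh7, the fetal myosin, measured 7.47, 6.45, 5.73, 7.24 and 6.70 in sham mice and 7.60, 7.62, 7.13, 7.13 and 6.91 in MI mice and Acta1, skeletal actin, 11.62, 11.56, 13.02, 11.30 and 11.87 in sham mice and 11.79, 11.92, 12.12, 11.69 and 11.24 in MI mice. In both the groups overlapped, and sham mouse 3 was the lowest sham for Myh7 and the highest of all 10 for Acta1. Myh6 and the calcium pump Atp2a2 were not called, and the values of Atp2a2, at 13.38 to 13.73 in sham and 13.37 to 13.52 in MI mice, again overlapped. With 75th percentile scaling Atp2a2 fell (log2 difference -0.38, adjusted p = 0.0289).

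Of 28 sarcomere and Z-disc genes 5 rose and 1 fell, a share near that of all genes called, and 3 rose without MI mouse 2. Synpo, an actin-bundling protein, rose by 1.02 (adjusted p = 0.000416), Pdlim7 by 0.83 (adjusted p = 0.0117) and Tpm1 by 0.74 (adjusted p = 0.00533). The core genes did not pass: titin (Ttn) had a log2 difference of -0.16, Mybpc3 of -0.07, Tnnc1 of -0.02 and Actc1 of 0.03, though Ttn and Tnnc1 fell with 75th percentile scaling (adjusted p = 0.0488 and adjusted p = 0.0379). With 75th percentile scaling 4 rose and 6 fell, and the median went from 0.00 to -0.29. Of 17 genes of sarcoplasmic reticulum calcium handling 0 rose and 4 fell, and 0 rose and 8 fell with 75th percentile scaling. Those 4 are 23.5% of the list, against 8.59% of all genes called lower and 18.4% called in either direction. Hrc, a calcium-binding protein of the lumen, fell by 0.64, and the calmodulin kinase genes Camk2a and Camk2b fell by 0.64 and 0.78 (adjusted p between 0.00238 and 0.00551). Another Camk2a probe was at -0.22. The release channel Ryr2 and the main cardiac kinase Camk2d were not called (log2 differences 0.01 and 0.05).

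Of 22 potassium channel genes 1 rose and 5 fell. The modifier subunit Kcnv2, and Kcnj11 and Kcnj8 of the ATP-sensitive channels of muscle and vessels, fell by 0.91, 0.43 and 0.55 (adjusted p between 0.00706 and 0.0153). The repolarising channel genes Kcnd2, Kcnip2, Kcnh2 and Kcnq1 did not pass (log2 differences -0.16, -0.16, -0.24 and 0.10). Adcy6, the cardiac adenylyl cyclase, fell by 0.61 (adjusted p = 0.00381, another probe at -0.06), while the receptor kinase Grk5 rose by 0.54 (adjusted p = 0.00751). Of 27 cardiac transcription factors 1 rose and 1 fell, and neither call held when single arrays were left out. Of the 27, 0 rose and 3 fell with 75th percentile scaling. Gata4, Nkx2-5 and Tbx5 did not pass (log2 differences -0.18, -0.17 and 0.10). Of 21 intercalated disc genes 0 rose and 1 fell, the alpha-catenin relative Ctnnal1, by 0.65 (adjusted p = 0.00429), and the connexin Gja1 did not pass (log2 difference 0.31, adjusted p = 0.169) but was called without MI mouse 5 (adjusted p = 0.0435).

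Of 11 sodium and calcium channel genes 0 rose and 3 fell, and 1 fell without sham mouse 3. Scn4b, a subunit that modifies the cardiac sodium channel, measured 8.69, 8.45, 9.01, 8.20 and 8.77 in sham mice and 7.66, 7.35, 7.75, 8.26 and 7.49 in MI mice and fell by 0.92 (SE 0.235, adjusted p = 0.0096), with the groups overlapping. Hcn2, a pacemaker channel, fell by 0.68, in a call that ended without sham mouse 3 (adjusted p = 0.0573). The calcium channel Cacna1c did not pass (log2 difference 0.15, adjusted p = 0.71). Of 16 circadian clock and output genes 0 rose and 2 fell, against 0 rises and 4 falls with 75th percentile scaling. Ciart, a repressor of the clock, measured 7.02, 6.38, 6.93, 6.98 and 6.85 in sham mice and 5.41, 5.66, 5.92, 5.51 and 5.74 in MI mice, and Nr1d1 fell by 0.76, in a call that ended without sham mouse 3 (adjusted p = 0.0545). The core clock genes Arntl, Clock, Per2 and Per3 did not pass (log2 differences -0.09, -0.02, -0.11 and 0.06), and the labels give no hour of sampling.

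Mitochondrial genes that passed were lower after MI, by small amounts, and how many passed depended on the scaling. Of 70 mitochondrial ribosomal proteins 0 rose and 20 fell (median -0.30), and 46 fell with 75th percentile scaling. Of the 70, 66 had a difference below 0. Mrps16 measured 10.21, 10.17, 10.24, 10.02 and 10.20 in sham mice and 9.82, 9.86, 9.62, 9.84 and 9.61 in MI mice and fell by 0.42 (SE 0.0983, adjusted p = 0.00539), and Mrpl30 and Mrpl4 fell by 0.51 and 0.52 (adjusted p = 0.0111 and adjusted p = 0.0139). Every MI mouse was below every sham mouse for Mrps16, with a gap smaller than the spread within either group. The count was 8 without sham mouse 3 and 8 without MI mouse 5, 10 to 12 without sham mouse 1 or 2 or MI mouse 1, 2 or 3, and 30 without sham mouse 4.

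Of 67 oxidative phosphorylation subunits 0 rose and 14 fell (median -0.18), and 39 fell with 75th percentile scaling. The 14 are 20.9% of the list, against 8.59% of all genes called lower and 18.4% called in either direction. Ndufs8 and Ndufa7 of complex I fell by 0.45 and 0.36 (adjusted p = 0.00683 and adjusted p = 0.016). The count was 3 without sham mouse 3, 4 to 7 without sham mouse 1 or 2 or MI mouse 1, 2, 3 or 5, and 9 without sham mouse 5. Of 26 regulators of mitochondrial biogenesis and dynamics 0 rose and 8 fell, with the nuclear receptor Rxrg down by 0.75 (adjusted p = 0.0011), the fusion gene Mfn1 by 0.45 (adjusted p = 0.00314) and Perm1 by 0.52 (adjusted p = 0.00981). The coactivator Ppargc1a and the receptor Ppara did not pass (log2 differences -0.73 and -0.06), although Ppargc1a was called without MI mouse 5 (adjusted p = 0.0276). Without sham mouse 1, 2 or 3 or MI mouse 3 or 5, 3 to 5 of the 26 fell.

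Of 41 genes of fatty acid uptake, storage and oxidation 2 rose and 8 fell, and 19 fell with 75th percentile scaling. Without that scaling 24.4% of the list was called, against 18.4% of all genes. The lipase Pnpla2 fell by 0.56 (adjusted p = 0.0114) and Acacb, which makes malonyl-CoA at the mitochondrion, by 0.47 (adjusted p = 0.0154, another probe at -0.07), while Acsl4, which activates arachidonate, rose by 0.43 (adjusted p = 0.0169), with another probe at -0.02. The fatty acid binding protein Fabp3 did not pass (log2 difference 0.02, adjusted p = 0.898). Without MI mouse 2 the number that fell was 4, and without sham mouse 2 it was 5. Ckm, the muscle creatine kinase, measured 12.78, 12.92, 13.35, 12.37 and 12.62 in sham mice and 12.06, 11.89, 12.17, 12.34 and 12.13 in MI mice and fell by 0.69 (adjusted p = 0.00901), by 0.97 on chip 1 and 0.26 on chip 2.

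Among the called enzymes of sugar and branched chain amino acid use, some rose and some fell. Hk3, the hexokinase of myeloid cells, rose by 1.03 (adjusted p = 0.00332), and Pygl, the glycogen phosphorylase of liver and leukocytes, by 0.65 (adjusted p = 0.00432). The muscle phosphoglycerate mutase Pgam2 fell by 0.45 (adjusted p = 0.00535). Bcat1, the cytosolic transaminase of branched chain amino acids, measured 5.68, 5.21, 5.78, 5.36 and 6.02 in sham mice and 7.22, 7.31, 7.67, 7.02 and 7.20 in MI mice and rose by 1.67 (SE 0.248, adjusted p = 0.000134), whereas its mitochondrial partner Bcat2 did not pass (log2 difference -0.25, adjusted p = 0.236) and Mcee of propionate breakdown fell by 0.58. Of 21 genes of branched chain amino acid and propionate breakdown 1 rose and 2 fell, and 1 rose and 9 fell with 75th percentile scaling. The share called was 14.3%, against 18.4% of all genes.

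Of 24 genes of the citric acid cycle and pyruvate oxidation 0 rose and 3 fell, and 13 fell with 75th percentile scaling. None of the 3 calls held without each array in turn, and 1 fell without sham mouse 2 or 3 or MI mouse 2 or 3. Of 21 glycolysis genes 3 rose and 2 fell, against 2 rises and 8 falls with 75th percentile scaling. Of 18 pentose phosphate and glycogen genes 1 rose and 3 fell. The shares called were 23.8% of the glycolysis genes and 22.2% of the pentose phosphate and glycogen genes, near the 18.4% of all genes. Rpia, which interconverts pentose phosphates, fell by 0.55 (adjusted p = 0.00362). The falls numbered 1 of the 21 without sham mouse 2 or MI mouse 1 or 2, and 1 of the 18 without MI mouse 2 or 3. Pgk1, Pkm and Ldha of glycolysis did not pass (log2 differences 0.24, -0.02 and 0.22). Of 24 autophagy and muscle atrophy genes 0 rose and 1 fell, or 0 without MI mouse 2 or 3 and 2 without MI mouse 5, and 0 rose and 6 fell with 75th percentile scaling. The atrophy ligases Fbxo32 and Trim63 did not pass (log2 differences 0.17 and 0.03). Of 19 glucocorticoid genes 1 rose, Angptl4, and 0 fell, with the target Fkbp5 at 0.11 (adjusted p = 0.895).

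Of 21 genes of the amino acid and stress responses 4 rose and 1 fell, and 3 rose and 4 fell with 75th percentile scaling. Without that scaling 23.8% of the list was called, against 18.4% of all genes. Psat1, of serine synthesis, measured 6.81, 6.22, 5.80, 6.71 and 6.47 in sham mice and 7.60, 8.21, 7.82, 7.68 and 7.84 in MI mice and rose by 1.43 (SE 0.237, adjusted p = 0.00035), and asparagine synthetase (Asns) rose by 0.86 (adjusted p = 0.000944). The stress response genes Atf3, Atf4, Ddit3 and Trib3 did not pass (log2 differences -0.32, 0.26, -0.37 and -0.20), though Ddit3 fell with 75th percentile scaling (adjusted p = 0.0488). The fall of Shmt2, by 0.40, ended without sham mouse 1, 2 or 3 or MI mouse 1 or 2 (adjusted p between 0.0546 and 0.072), and its other probe was at 0.27. Of 18 cholesterol synthesis genes 3 rose and 0 fell, or 16.7%, against 9.77% of all genes called higher and 18.4% called in either direction. Squalene epoxidase (Sqle) rose by 0.86 (adjusted p = 0.00298) and Msmo1 by 0.44 (adjusted p = 0.00979).

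Of 37 antioxidant enzymes and metallothioneins 7 rose and 7 fell, and 4 rose and 11 fell with 75th percentile scaling. Besides Hmox1, the genes that rose include Gpx7 of the endoplasmic reticulum, by 0.85 (adjusted p = 0.00344), and Ncf4 of the phagocyte oxidase, by 1.08 (adjusted p = 0.00324). Those that fell include the conjugating enzyme Gstp1 and the epoxide hydrolase Ephx1, by 0.39 and 0.54, and mitochondrial thioredoxin Txn2, by 0.40. Other genes regulated by Nfe2l2, namely Nqo1, Gclc, Txnrd1 and Srxn1, did not pass (log2 differences 0.25, 0.04, 0.11 and 0.00). Of 28 iron and heme genes 3 rose and 2 fell, a share near that of all genes called, and 1 rose without MI mouse 3 or without MI mouse 5. Of the 28, 1 rose and 4 fell with 75th percentile scaling. The heme synthesis genes Alad and Alas2 fell by 0.61 (adjusted p = 0.00179) and 0.66 (adjusted p = 0.0189), and haptoglobin (Hp), which binds free hemoglobin, rose by 1.38 (adjusted p = 0.013). The globins Hbb-bs and Hba-a1 did not pass (log2 differences -0.15 and -0.20) but fell with 75th percentile scaling (log2 differences -0.54 and -0.57, adjusted p = 0.00413 and adjusted p = 0.0042), and of 5 erythroid markers Alas2 was the 1 called, against 0 rises and 4 falls with that scaling.

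Of 18 endoplasmic reticulum chaperones 6 rose and 0 fell, and 3 rose without sham mouse 1, without MI mouse 1 or with 75th percentile scaling. Pdia3 and Pdia4, which form disulfide bonds, rose by 0.72 and 0.62 (adjusted p = 0.0016 and adjusted p = 0.00543), and Hspa5 did not pass (log2 difference 0.28, adjusted p = 0.613). Of 24 cytosolic and inducible heat shock proteins 0 rose and 2 fell, and 0 rose and 7 fell with 75th percentile scaling. Ahsa1, a cochaperone of Hsp90, fell by 0.40 (adjusted p = 0.0112), and Hsph1 fell by 0.91, in a call that ended without any 1 of the male mice other than sham mouse 4 or MI mouse 1 (adjusted p between 0.0528 and 0.102). Hspb1, Cryab and Hspa1a did not pass (log2 differences -0.23, -0.05 and -0.42).

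Of 27 constitutive proteasome subunits 0 were called, 2 had an unadjusted p under 0.05, and 0 rose and 3 fell with 75th percentile scaling. Their differences lay between -0.14 and 0.28. Of 47 cytosolic ribosomal proteins 3 rose and 0 fell (median 0.12), and 1 rose without MI mouse 3. With 75th percentile scaling 0 rose and 7 fell (median -0.13), so their direction is not settled. Nucleophosmin (Npm1) rose by 0.49 (adjusted p = 0.00242), but not with 75th percentile scaling (adjusted p = 0.0711).

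Of 7 mesothelial and epicardial markers 1 rose and 0 fell, and 1 rose and 2 fell with 75th percentile scaling. Aldh1a2, which makes retinoic acid in epicardium and mesothelium, measured 5.25, 5.26, 5.51, 5.42 and 5.52 in sham mice and 6.89, 7.27, 7.05, 6.87 and 6.72 in MI mice and rose by 1.57 (SE 0.16, adjusted p = 7.59e-06). The other 6 did not pass, with Msln at -0.36 and Upk3b at -0.78, although Upk3b was called without MI mouse 3 (adjusted p = 0.0477) and fell with 75th percentile scaling (adjusted p = 0.037). Of 7 lymphatic markers 1 rose and 1 fell. Pdpn, podoplanin of lymphatic vessels and activated stroma, rose by 1.29 (adjusted p = 0.000473), while the lymphatic factor Prox1 fell by 0.53 (adjusted p = 0.00859) and Lyve1 and Flt4 did not pass (log2 differences -0.20 and 0.03). Of 12 pericyte and smooth muscle markers 2 rose and 1 fell. Mcam rose by 0.99 (adjusted p = 0.00124), and Tagln, the actin-binding transgelin, by 0.57, in a call that ended without sham mouse 2 or 5 or MI mouse 3 or 5 (adjusted p between 0.0534 and 0.0649). Kcnj8 fell by 0.55 (adjusted p = 0.00951), whereas Pdgfrb and Rgs5 did not pass (-0.01 and -0.28). Of 26 immediate early genes 1 rose and 1 fell, and 2 or 3 rose without sham mouse 1 or 4 or MI mouse 5. Egr2 measured 5.35, 5.43, 5.34, 6.76 and 5.55 in sham mice and 6.97, 7.33, 7.09, 6.93 and 6.72 in MI mice and rose by 1.32 (adjusted p = 0.000639), with sham mouse 4 above MI mouse 5. Srf fell by 0.40, in a call that ended without sham mouse 1 or 2 or MI mouse 5 (adjusted p between 0.0513 and 0.059).

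The 10 mice lay on 2 chips, 3 of each group on chip 1 and 2 of each on chip 2, so each chip gives its own comparison. Across all 12921 genes the log2 differences on chip 1 and chip 2 had a Pearson r of 0.698 and a Spearman rho of 0.587, a description over genes, which are not replicates, between chips that share no mice but were normalised together. The sign was the same on both chips for 71.0% of all genes and for 2365 of the 2373 called genes, whose calling used both chips. The difference was larger on chip 1 for 68.0% of all genes and for 83.1% of the called genes. By itself chip 1 gave 2160 called genes and chip 2, with 2 mice per group, 624, of which 562 were higher and 62 lower.

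The difference between the chips in the response to MI was tested gene by gene in the 10 male arrays, and 0 of 12921 genes passed (limma's moderated test, lowest adjusted p = 0.795, 723 genes at an unadjusted p under 0.05). Without MI mouse 3, 32 genes passed, and without sham mouse 1, 1 gene did. The smallest unadjusted p-values belonged to Lcp1, the plastin of leukocytes, with a rise of 1.71 on chip 1 and 0.81 on chip 2, and to Tpm3, at 1.83 and 0.82. Thrsp, a regulator of lipid synthesis, stood at -1.55 and -0.11. None of these differences passed (adjusted p = 0.795 for all 3).

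**Figure D5:**
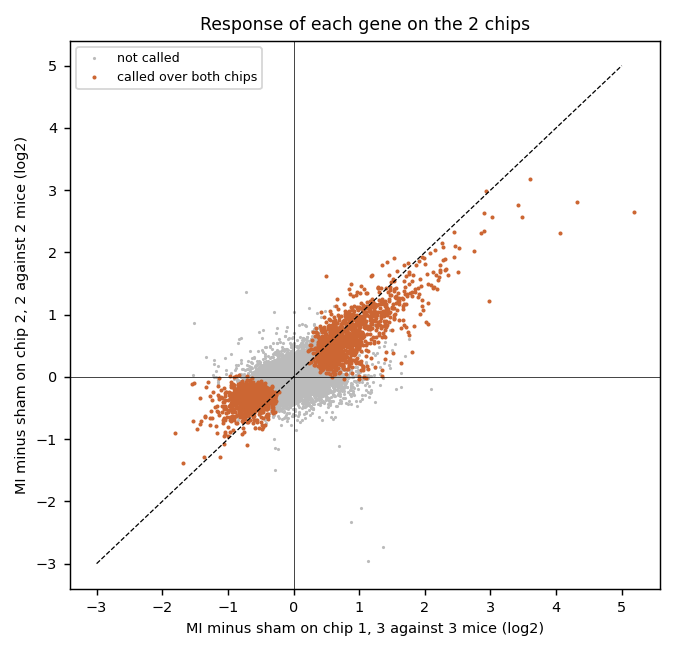
Log2 difference between MI and sham for every gene on chip 1 (x axis, 3 against 3 mice) and on chip 2 (y axis, 2 against 2 mice), with called genes in orange and a dashed line of equality. Most called genes lie to the upper right and lower left and nearer the chip 1 axis, 1971 of 2373 with the larger difference on chip 1.

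The response of males was set against that of females in the same model, gene by gene. The difference between the sexes passed for 0 of 12921 genes (limma's moderated test, lowest adjusted p = 0.554), while 1091 had an unadjusted p under 0.05. With array weights 31 genes passed. The 6 smallest unadjusted p-values included Fign, a microtubule-severing enzyme, with a log2 difference after MI of 0.01 in males and -1.20 in females, and Gdf3, a TGF-beta family ligand, with 0.30 and 1.604. Pde3a, the phosphodiesterase of heart muscle, stood at 0.24 in males and -0.80 in females. None passed (adjusted p = 0.554 for all 3). Sex and chip nearly coincide, since male arrays lie on chips 1 and 2 and female MI arrays on chips 3 and 4, so a difference of the response between the sexes cannot be told apart from one between chips. A p above the threshold does not show that the sexes responded alike.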

How the data were processed

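RNA from left ventricle of 20 mice, 5 per sex and surgery, was hybridised to Illumina BeadChips, 1 array per mouse. The authors deposited, per the file headers, an intensity per probe and a detection p-value per array, not normalised, and a separate value table on a log2 scale, used here as an alternative. No source used here states the scanner software or array version. A probe was kept where its detection p lay under 0.01 on 5 or more of the 20 arrays. A dim gene could thus be kept through MI arrays alone, which can raise the share of rises in a list. Background was fitted by normexp from the detection p-values (offset 16), followed by quantile normalisation and log2 (limma 3.58.1, R 4.3.3). The brightest probe stood for a gene, and probes listing several symbols (18 of 45281) or absent from the annotation (10378) were left unnamed. 1 model over the 4 groups gave the male contrast with Benjamini-Hochberg adjustment.

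The arrays follow from the labels, but the comparison, the members named and the gene lists were chosen with earlier results of these data known. Named genes are the 16 largest rises and falls among called genes whose groups did not overlap and that were called without sham mouse 3, up to 4 called genes per list and direction with the smallest p, 2 per list with the highest level, the 6 smallest p-values of each difference between sexes and chips, and a fixed set of cardiac, matrix and sex-linked genes. In simulated data for the male comparison, run on 12921 genes, 94% of rises and 96% of falls of 1 log2 unit were recovered, and 50% and 42% of those of 0.5. Only 200 genes were changed there, with independent noise and no array, chip or position effect, so recovery in the real data may differ. Alternatives covered background, scaling, filter, probe choice, chip, array position, array weights and each array left out. Probes with no gene name stayed in the adjustment.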

Additional observations from a re-analysis of the deposited data

Results flagged for a closer look

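In each group of 5 mice, 1 value lay far from the other 4 for 57 of the 652 groups checked (every gene named and the number of probes detected, in sham and in MI), and chance alone would mark about 1 in 20. The gap to the nearest value exceeded 0.71 of the range of the group.

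Below the other 4 in sham mouse 1 was Cacna1c at 4.99. Lower than the rest in sham mouse 2 were Ciart at 6.38 and Ltb4r1 at 4.96. Set below the rest of the group in sham mouse 3 were Dcn at 12.30, Eif2s3y at 6.57, H2-Aa at 5.24, Hspa5 at 4.86, Mcm6 at 6.60, Per3 at 4.46 and Pln at 7.96. The values that stood above the other 4 in sham mouse 3 were Bcat2 at 9.73, Ccnd1 at 11.12, Gapdh at 13.38, H2ac19 at 10.34, Mcam at 8.44, Mcee at 12.05, Ndufa7 at 12.79, Pdlim7 at 8.29, Tcf15 at 8.57, Thy1 at 8.41 and Tpm1 at 9.89. Lower than the rest in sham mouse 4 were Ahsa1 at 8.75, Nkx2-5 at 8.48 and P4ha1 at 6.58. Set above the rest of the group in sham mouse 4 were Ctnnal1 at 9.58 and Egr2 at 6.76. The value that stood above the other 4 in sham mouse 5 was Cd74 at 9.80.

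Lower than the rest in MI mouse 2 were Acacb at 9.85 and Ndufs8 at 11.77. Set above the rest of the group in MI mouse 2 was Sele at 5.86. The values that stood above the other 4 in MI mouse 3 were E2f1 at 7.52, Mcm5 at 8.96, Pdlim7 at 9.10, Ptgis at 9.91, Rbl1 at 6.34, Spc25 at 6.24 and Tpm1 at 10.66. Lower than the rest in MI mouse 4 were Casp8 at 7.48, Dkk3 at 6.66, Myl4 at 6.89, Myl7 at 4.43, Sln at 4.26 and Tnc at 9.12. Set above the rest of the group in MI mouse 4 was Ctsf at 7.52. Below the other 4 in MI mouse 5 were Ccl12 at 8.39, Gja1 at 12.55, Nppb at 12.40 and Sqle at 5.70. Higher than the rest in MI mouse 5 were Cdkn1a at 10.23, Ddit4 at 10.47, Fkbp5 at 9.22, Nfkbia at 8.72, Per1 at 9.21, Ppargc1a at 9.70, Timp3 at 11.27 and Zbtb16 at 6.57. The array of MI mouse 4 had 17297 probes detected, against 18042 to 18307 in the others of its group. Sham mouse 3, on the array in position F, held the largest number of these values.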

How the results depend on the processing

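The count of 2373 called genes lay between 1711 and 2506 when each male array was left out in turn. It fell to 624 with chip 2 alone, rose to 4150 with array weights and was 148 when limma tested for a change beyond 0.5 on the log2 scale. In every other setting tried it stayed within 1.5 times. The count of genes whose response differed between the sexes went from 0 to 31 with array weights, and that of genes whose response differed between chips lay between 0 and 32 with each male array left out. Replicate numbers are shared between the groups, and the deviations from the group means of mice with the numbers 1 to 5 correlated at -0.33, 0.14, 0.14, 0.13 and 0.02. With 3 of the 5 over 0.1 and not all 5, the numbers were not taken as pairs, and 2 of the 10 mice correlated best with the mouse of their own number. The fit with the replicate number as a block called 2798 genes. Of 81 lists, 48 had a median above 0, against 35 with 75th percentile scaling and between 45 and 51 without each array in turn. Of 324 genes named, 211 were called, and 11 of those calls ended without some array. Fkbp5, which was not called, fell by 0.72 with chip 1 alone (adjusted p = 0.0497), where MI mouse 5 is left out. 1 list, the B cell markers, had no gene left among those detected in all 5 arrays of a male group.

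The number of arrays limits the precision, and the offset of 16 shrinks differences of genes near background. The authors' own processed values gave 2380 called genes. Infarct size, tissue position and hour of sampling were not analysed here.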

Other observations

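MI mouse 5 stood apart in genes that glucocorticoids are known to induce, a list taken over with the others, while the mouse was singled out after its values were seen. Fkbp5, which damps the glucocorticoid receptor, measured 7.93, 7.21, 7.55, 6.24 and 6.78 in sham mice and 6.79, 6.58, 7.16, 6.52 and 9.22 in MI mice. Pdk4, which restrains glucose oxidation, measured 11.02, 11.47, 11.34, 10.79 and 11.18 in sham mice and 11.38, 10.79, 10.91, 10.61 and 12.93 in MI mice. Ddit4, an inhibitor of mTOR signalling, measured 9.65, 8.78, 9.27, 9.25 and 8.55 in sham mice and 8.62, 8.11, 8.57, 8.58 and 10.47 in MI mice. MI mouse 5 was the highest of the 10 mice for these 3 genes, for 12 of the 19 measured genes of the list, and the highest of the 5 MI mice for 16 of the 19. Among the rest of the list, Zbtb16 measured 4.87 to 6.57 over the MI mice, Tsc22d3 9.32 to 10.78 and Per1 8.10 to 9.21, each highest in MI mouse 5. The receptor gene Nr3c1 lay at 4.67 in that mouse and within 4.67 to 5.31 over the MI mice. The same mouse had the highest MI value of Ppargc1a, at 9.70, of Cdkn1a, at 10.23, and of Car4, at 7.71. Angptl4 was the 1 gene of the 19 called between the groups.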
